A study of Mus musculus with 33 samples.

Results

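Donor monocytes recovered from the small intestine of healthy recipients were compared with donor monocytes recovered from their bone marrow (BM). The members were the 4 libraries of transferred monocytes from the small intestine and the 3 from the BM of non-manipulated recipients, 7 of 33 libraries in all, taken by their labels. Each of the 57 genes measured in every library, of 67 on the panel, was examined. Donors were C57BL/6 WT mice, and recipients were C57BL/6 CCR2-/- mice that had no surgery, so both tissues were those of a host whose own cells lack the receptor Ccr2. Cells were sorted 1 day after the transfer, and each library came from 100 sorted cells and was read by nCounter, a hybridisation assay that counts a barcode for each transcript. Manipulated recipients, of the same genotype and time, had surgery on the small intestine before the transfer and gave 5 small intestinal and 3 BM libraries, used here only to set the tissue difference beside that of an inflamed gut. In 4 other libraries, monocytes of manipulated donors had been recovered from healthy small intestine.

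Monocytes form in the BM, leave it along a gradient sensed by Ccr2, and replenish the macrophages of the intestinal wall throughout life. After they have left the blood they pass through intermediate stages before they become resident macrophages. Interleukin-1α and interleukin-1β, encoded by Il1a and Il1b, signal through a shared receptor, and macrophages of the gut are also known as a source of interleukin-10, which restrains inflammation.

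The preparation of the tissues differed, per the methods of the study. Small intestine was incubated with EDTA, collagenase VIII and DNase in a warm shaker, whereas BM was flushed from the bones and its red cells lysed. Tissue and preparation therefore cannot be told apart in this comparison. Donor cells of the intestine were gated as CD11b+ CD11c low to intermediate CD64+ cells, so that Itgax, which encodes CD11c, and Fcgr1, which encodes CD64, were not independent of the sort. The labels number the mice but do not say that each library was a separate animal, so p-values measure the spread between libraries.

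Total counts ranged from 1283497 to 1466732 in the small intestine and were 1494279, 1319006 and 1144085 in BM. Counts followed PCR amplification, and what limits their precision was not tested. A level is log2 of the count after scaling to Actb, Gapdh and Rpl19, plus 1. A difference of 1 on this scale is a doubling. Markers of Ly6C-high monocytes were well above background in every library of both tissues, with Ccr2 between 16.08 and 17.14 and Chil3, a chitinase-like protein of these cells, between 15.74 and 17.15. The macrophage genes Csf1r and Fcgr1 lay between 14.31 and 16.81, and Mrc1, the mannose receptor of mature macrophages, between 6.08 and 8.06. Of markers of neutrophils, of lymphocytes, of epithelial and stromal cells and of erythroid and progenitor cells 0 were measured, and of the dendritic cell markers only Ccr7, so the purity of the sort was not tested.

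The genes Il1a and Il1b carried the widest differences, and both lie on chromosome 2, with start sites 61.2 kb apart and the same strand. Their upstream sequences are shown because both genes were higher in small intestine than in BM. Whether their levels vary together between libraries was not tested. The set of RefSeq windows used here held 3 of the 7 genes past the threshold, Il1a, Il1b and Vegfa. The 250 bases before the start site (GRCm38.p6, minus strand, 5′ to 3′) span chr2:129309973-129310222 for Il1a and chr2:129371140-129371389 for Il1b, with TATAAA and TGANTCA, a motif of AP-1 factors, in capitals.
Il1a: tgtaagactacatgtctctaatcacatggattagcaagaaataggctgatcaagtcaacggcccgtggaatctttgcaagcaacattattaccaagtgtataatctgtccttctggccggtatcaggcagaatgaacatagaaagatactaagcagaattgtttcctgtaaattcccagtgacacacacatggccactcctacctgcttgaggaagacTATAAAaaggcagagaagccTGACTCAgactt
Il1b: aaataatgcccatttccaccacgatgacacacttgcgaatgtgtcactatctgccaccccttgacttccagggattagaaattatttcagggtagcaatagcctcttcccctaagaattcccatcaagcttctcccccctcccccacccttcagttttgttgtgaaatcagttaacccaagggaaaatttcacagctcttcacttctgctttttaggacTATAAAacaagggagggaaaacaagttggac
The longest run shared by both windows is GACTATAAAA, of 10 bases. It holds the TATAAA of each gene, which starts 32 bases before the start site in Il1a and 31 bases before it in Il1b. Of 32851 such windows of mouse genes, 12.4% hold TATAAA on either strand and 7.59% in the orientation shown, at any position. All motifs were searched on both strands. TGANTCA occurs in the window of Il1a and not in that of Il1b, and in 6.75% of all windows. GAGGAA, a motif of PU.1, was found in Il1a and in 1 of 2 Vegfa windows and in 23.3% of all. Neither GGNNTTTCC of NF-kB (4.93% of all windows) nor TTGCGCAA of C/EBP factors (0.164%) was found in the windows of the 3 genes. These matches are letters in a window, not measured binding.

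Of the 57 genes, 7 (12.3%) passed the test, 6 higher (10.5%) and 1 lower (1.75%) in small intestine than in BM (limma, adjusted p under 0.05 over 57 genes). The higher genes were Il1a, Il1b, Vegfa, Cd14, Ccl2 and Il10. In 12 genes every small intestinal library lay above every BM library (21.1%), and in 3 genes every one lay below (5.26%), 15 in all (26.3%), so 8 of these 15 genes did not pass the test. The median difference over the 57 genes was 0.13, and 37 genes differed by less than 1 in either direction. With DESeq2 and its own size factors the split was 5 higher and 3 lower. Since each library pooled cells, fewer cells that express a gene and less RNA per cell cannot be told apart.

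**Figure D1:**
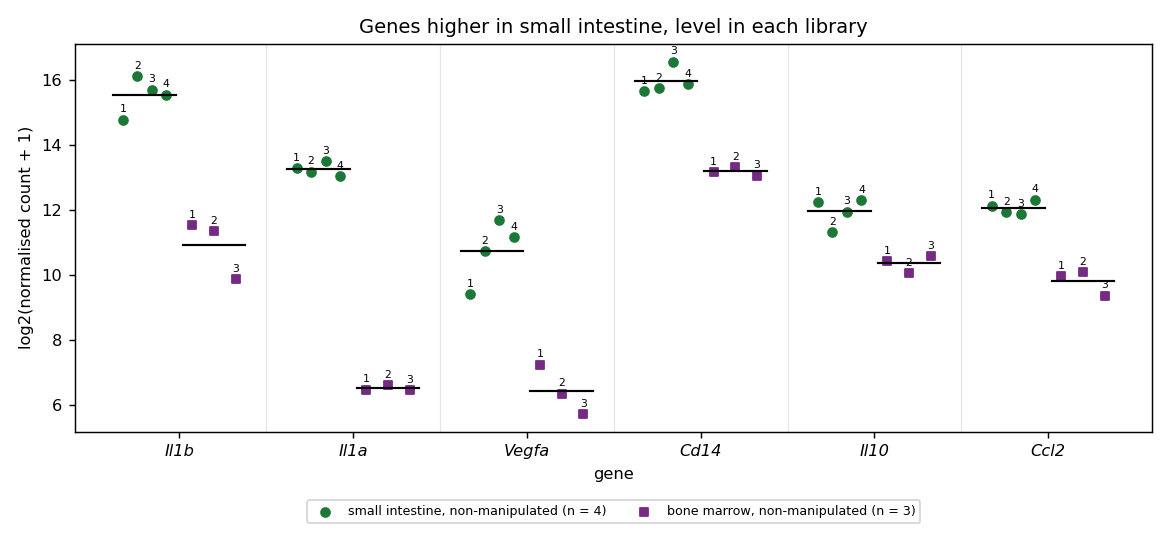
Level of the 6 genes higher in small intestine in each library of non-manipulated recipients, as log2(normalised count + 1). Points are libraries, numbered as in the labels, and black lines are group means. The 4 small intestinal libraries lie above the 3 BM libraries for all 6 genes.

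Il1a had the widest difference. It stood at 13.28, 13.19, 13.52 and 13.05 in the 4 small intestinal libraries and at 6.47, 6.60 and 6.46 in the 3 BM libraries. All BM libraries were above the background of the negative control probes, by a narrow margin, and the tissues were far from overlap. The difference was 6.75 ± 1.21 (SE), or 108-fold (adjusted p = 0.00025), and 7.31 with the background subtracted. The SDs within the 2 groups were only 0.20 and 0.08, and the larger SE comes from other groups of the joint fit, in which Il1a spread more. 

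Il1b was expressed in BM and was higher in the intestine. Its levels were 14.79, 16.13, 15.71 and 15.56 in small intestine and 11.54, 11.35 and 9.87 in BM. Library 3 of BM was the lowest and library 1 the lowest of the intestine, yet the groups stayed apart. The difference was 4.63 ± 0.64, 24.7-fold (adjusted p = 8.0e-06). Between libraries deposited without a multiplier it was 5.59, and between those deposited with one 4.19. For Il1a the corresponding values were 6.78 and 6.75.

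Cd14, the co-receptor that hands bacterial lipopolysaccharide to Tlr4, was well above background in both tissues. It stood at 15.67, 15.76, 16.58 and 15.87 in small intestine and at 13.18, 13.33 and 13.06 in BM, with tight groups. It was 6.86-fold higher in small intestine (2.78 ± 0.63, adjusted p = 0.0025). Tlr4 itself differed by only 0.14 (95% interval -0.90 to 1.17). Of 10 measured genes of pattern recognition and innate signalling, Cd14 was the only one past the test and 9 were not, with a median difference of 0.10, beside 10.5% higher and a median of 0.13 over all genes. Among them Trem1, a receptor that amplifies inflammatory signals, stood at 9.53, 9.27, 11.63 and 10.42 against 9.0, 7.56 and 7.67, a difference of 2.14 ± 0.77 that did not pass (adjusted p = 0.063). Nod2, a sensor of bacterial cell walls, differed by 0.54 and Card9, an adaptor of innate receptors, by -0.61.

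Vegfa, an angiogenic growth factor, stood at 9.41, 10.75, 11.69 and 11.16 in small intestine. In BM it stood at 7.24, 6.35 and 5.71, and 2 of these 3 libraries were above background. Library 1 was the lowest of the intestine but still above the highest BM library. The difference was 4.32 ± 0.94, 19.9-fold (adjusted p = 0.0020), and 4.93 with the background subtracted. In the libraries without and with a multiplier Vegfa differed by 4.37 and 4.63, and Cd14 by 2.65 and 2.97, again with 1 BM library without one. The calls of Il1a, Il1b, Cd14 and Vegfa held in each of the 23 alternatives run, with adjusted p of at most 0.028.

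Il10, the anti-inflammatory cytokine, was measured at 12.26, 11.32, 11.95 and 12.30 in small intestine and at 10.43, 10.06 and 10.59 in BM. The groups did not overlap, and Il10 was 3.03-fold higher in the intestine (1.60 ± 0.48, adjusted p = 0.025). Its receptor subunit Il10ra differed by -0.20 (95% interval -1.62 to 1.22) and Tgfb1, another regulatory cytokine, by -0.12 (-0.74 to 0.50). Of 8 regulatory and alternative activation genes 2 were higher (Vegfa and Il10), 0 were lower and 6 did not pass, with a median difference of 0.95, beside 10.5% higher and a median of 0.13 over all 57 genes. Without library 1, 3 or 4 of small intestine or library 2 of BM the adjusted p of Il10 was 0.051 to 0.12.

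Arg1, the gene of arginase, which breaks down arginine, stood at 9.21, 8.60, 8.19 and 7.82 in small intestine and at 6.76, 7.28 and 6.66 in BM. These libraries did not overlap, but the difference of 1.55 ± 1.27 did not pass (adjusted p = 0.63), given the spread of Arg1 in other groups. In a fit of the 2 tissues alone it passed (adjusted p = 0.035). Retnla, a marker of alternative activation, was at background in BM (0 of 3 libraries above it) and at 5.37, 5.26, 5.76 and 12.85 in small intestine, where only library 4 was high. Its difference of 1.99 ± 1.06 did not pass (adjusted p = 0.28). Chil3 differed by 0.04 (-1.05 to 1.14) and Mrc1 by 0.36 (-1.02 to 1.73).

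Among the other pro-inflammatory cytokines the tissues were not shown to differ. Tnf was well above background in both, at 14.08, 13.95, 15.06 and 15.37 in small intestine and at 13.95, 14.49 and 14.63 in BM, with overlapping groups and a difference of 0.26 (-0.98 to 1.49). Il6 was not above background in any BM library and stood between 6.14 and 6.26 in small intestine, barely above it. Il23a, a subunit of interleukin-23, lay between 5.83 and 7.10 in small intestine and 6.10 and 6.94 in BM. Of the 5 genes of this list 2 were higher, 0 lower and 3 did not pass, with a median difference of 0.81, beside the same 10.5% and 0.13 over all genes.

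The chemokine Ccl2, the main ligand of Ccr2, stood at 12.14, 11.95, 11.87 and 12.32 in small intestine and at 9.96, 10.09 and 9.36 in BM. It was 4.81-fold higher in the intestine without overlap (2.27 ± 0.75, adjusted p = 0.047). This call was narrow, since leaving out any 1 of the 7 libraries took its adjusted p to between 0.055 and 0.17, and it did not pass with edgeR (adjusted p = 0.062). Ccl22, a chemokine of dendritic cells and macrophages, stood at 12.08, 10.54, 10.39 and 11.69 against 9.72, 9.15 and 9.97, a difference of 1.56 ± 0.64 (adjusted p = 0.12). Of 8 chemokines 1 was higher and 7 did not pass, with a median difference of 0.08, a share near the 10.5% of all genes.

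Within the libraries deposited without and with a multiplier, Il10 differed by 1.2 and 1.88, and Ccl2 by 2.68 and 2.07, with 1 BM library without one.

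Among receptors and adhesion molecules, Ccr7, which guides cells to lymph nodes, stood at 11.87, 10.76, 11.34 and 11.31 in small intestine and at 9.27, 8.85 and 9.85 in BM. The groups were clearly apart, but the difference of 2.00 ± 0.69 did not pass (adjusted p = 0.056). In limma, Ccr7 passed in a fit of the 2 tissues alone (adjusted p = 0.0099) and with total counts (adjusted p = 0.036), but not with TMM factors (adjusted p = 0.12). Itgb7, the β7-integrin of gut homing, stood between 13.82 and 15.02 in small intestine and at 15.35, 15.15 and 15.11 in BM, below it in every library (-0.86 ± 0.52, adjusted p = 0.34). Ccr9, a receptor for homing to the small intestine, lay between 7.49 and 7.96 against 6.73 and 7.48 (0.74 ± 0.38, adjusted p = 0.26). Ccr2 differed by -0.44 (-1.76 to 0.88).

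Genes of macrophage maturation were not shown to differ. H2-Ab1, an MHC class II gene, was well above background in all 7 libraries, at 17.04, 16.67, 16.42 and 16.49 in small intestine and at 16.93, 17.93 and 16.35 in BM, with a difference of -0.42 (-3.54 to 2.70). Cx3cr1, the fractalkine receptor that rises as gut macrophages mature, differed by 0.20 (-1.93 to 2.33). Itgax stood at 12.30, 12.93, 12.45 and 12.51 in small intestine, while BM was split, with 12.37 in library 1 and 10.06 and 10.35 in libraries 2 and 3. Its difference of 1.62 ± 0.93 did not pass (adjusted p = 0.31). Of 8 mature macrophage markers 0 passed, with a median of -0.12, beside 12.3% passing and a median of 0.13 over all 57 genes. The wide intervals do not show that the tissues were alike. Summed over these markers as counts, the log2 level was 16.21 to 16.80 in small intestine and 16.34 to 17.80 in BM. In such a sum the genes with high counts weigh most. Over both tissues Fcgr1, not independent of the sort, lay between 14.39 and 16.81, and Mrc1 between 6.08 and 8.06.

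The co-stimulatory molecule Cd86 stood at 13.19, 12.73, 14.08 and 13.76 in small intestine and at 12.24, 12.78 and 10.60 in BM, and the groups overlapped slightly. Its difference of 1.57 ± 0.58 did not pass (adjusted p = 0.066), and without library 3 of BM, the low one, it was 0.93. Its partner Cd80 differed by 0.61 (-0.52 to 1.73).

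Of 9 transcription factors 0 passed, and their median difference was -0.17, beside 12.3% passing and a median of 0.13 over all 57 genes. Nfkb1, the p50 subunit of NF-kB, stood between 14.93 and 15.59 in small intestine and at 15.85, 16.07 and 16.03 in BM, lower in every library but not past the test (-0.80 ± 0.37, adjusted p = 0.17). With DESeq2 and its own size factors it passed (-1.26, adjusted p = 0.012). Cebpb, a factor of the myeloid lineage, differed by 1.25 ± 0.54 (adjusted p = 0.14), with library 1 of BM at 13.48 within the intestinal range and libraries 2 and 3 at 11.99 and 10.74. Spi1, which encodes PU.1, varied little, between 16.28 and 16.56 against 16.38 and 16.89 (-0.20, interval -0.86 to 0.47).

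**Figure D2:**
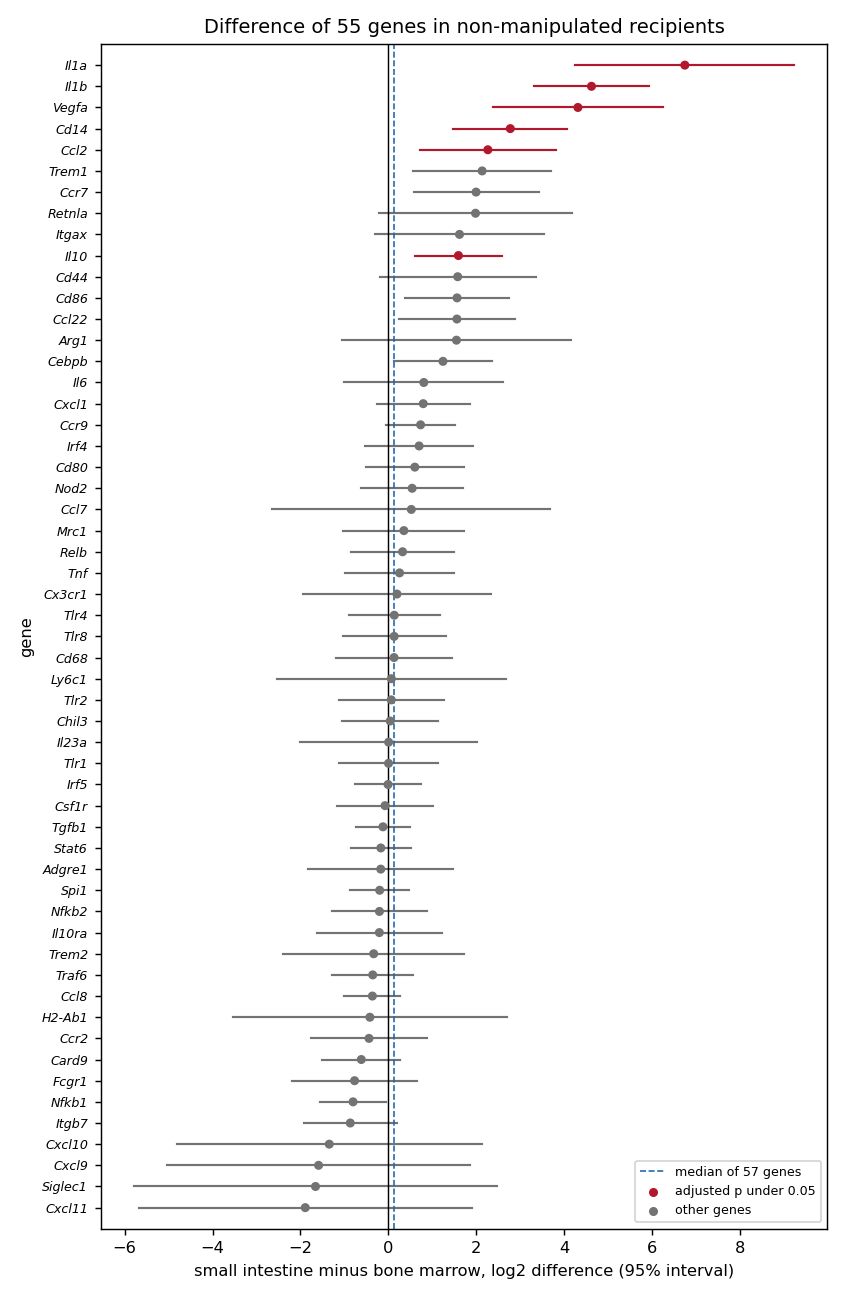
Small intestine minus BM in non-manipulated recipients for 55 genes, as log2 difference with its 95% interval from the limma fit. Red marks the 6 genes past the threshold, grey the other genes drawn, and the dashed line the median of 0.13 over all 57 genes tested. Il1a is highest at 6.75.

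The BM libraries differed from each other more than those of the intestine for several groups of genes, which were picked after their values were seen and carry no test. The range within BM exceeded 2 units for 20 genes, and within small intestine for 9. Library 2 of BM was the highest BM library for 29 of the 57 genes and the highest of all 7 libraries for 14, and it had the lowest size factor of the 7 (0.584). Among these 14 genes were the interferon-induced chemokines. Cxcl10 stood at 14.21, 17.58 and 15.43 in BM libraries 1, 2 and 3, Cxcl11 at 8.62, 14.42 and 10.46, and Cxcl9 at 11.16, 14.10 and 10.83. Siglec1, a sialic acid receptor of macrophages, stood at 11.73, 15.44 and 13.07. Fcgr1, which encodes CD64, was also highest in this library. Library 2 was also the highest for Cxcl10 in healthy spleen (13.79, 17.42 and 12.89) and healthy liver (15.73, 16.77 and 14.33). The same held in manipulated BM (9.77, 16.33 and 11.87), spleen (12.09, 17.04 and 7.94) and liver (13.31 and 15.77). In healthy and manipulated small intestine library 1 was the highest. With monocytes of manipulated donors in healthy small intestine it was library 2 (16.20). Whether equal numbers share an animal or a batch was not tested, nor was the part of the size factor in these levels.

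In the intestine the 3 chemokines also varied between libraries. Cxcl10 stood at 15.47, 15.05, 14.28 and 12.78, Cxcl9 at 10.89, 11.72, 6.72 and 12.44 and Cxcl11 at 9.73, 11.10, 6.62 and 9.66. The range of Cxcl9 was wider in the intestine than in BM (5.72 against 3.27), and those of Cxcl10 (2.69 against 3.37) and Cxcl11 (4.48 against 5.80) were narrower. Cxcl9 differed between the tissues by -1.59 with an interval from -5.04 to 1.87.

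Library 1 of BM had a different profile. Cx3cr1 stood at 13.02 in it against 8.97 and 9.86 in libraries 2 and 3, Cd44, a receptor for hyaluronan, at 11.63 against 8.67 and 8.31, and Adgre1, which encodes F4/80, at 12.36 against 10.91 and 9.28. Together with Itgax, these genes placed library 1 within or above the intestinal range, and the other 2 mostly below it. Cx3cr1 was also highest in library 1 of healthy spleen (13.16 against 10.04 and 11.39), but in library 3 of healthy liver and library 2 of healthy small intestine. Library 3 of BM was the lowest of its group for 36 of 57 genes. It also had the highest Rpl19, 6531 counts against 1927 and 926, and Rpl19 is 1 of 3 genes behind the scaling. Library 3 had the highest Rpl19 in healthy spleen (6998 counts) and healthy liver (6050) too, but the lowest in healthy small intestine (2386). Without Rpl19 in the scaling 5 genes passed, and Il10 and Ccl2 did not (adjusted p of 0.087 and 0.055).

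**Figure D3:**
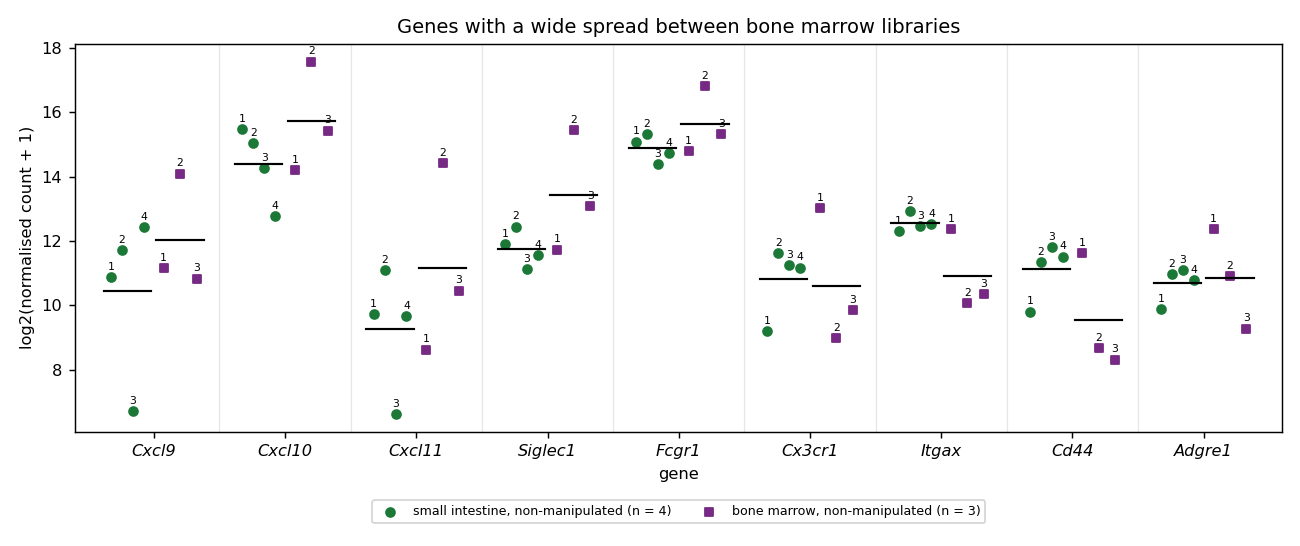
Level of 9 genes with a wide spread between BM libraries, as log2(normalised count + 1), in the 4 small intestinal and 3 BM libraries of non-manipulated recipients. Points are libraries with their numbers and black lines are means. Library 2 of BM is highest for the 5 genes from Cxcl9 to Fcgr1, and library 1 of BM is the highest BM library for the 4 genes from Cx3cr1 to Adgre1.

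Whether the same tissue difference was present in manipulated recipients was tested as the difference between the 2 contrasts. Of the 57 genes 5 (8.77%) passed, and in all 5 the small intestine exceeded BM by more in manipulated than in non-manipulated recipients. None of the 6 genes higher in healthy small intestine was among them.

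Cxcl1, which attracts neutrophils, stood at 7.34, 8.10, 7.99 and 8.70 in healthy small intestine and at 7.23, 7.59 and 6.88 in healthy BM. In manipulated recipients it stood at 11.48, 11.06, 12.66, 12.12 and 11.48 in small intestine and at 7.59, 6.96 and 7.13 in BM. The groups of healthy recipients overlapped and those of manipulated ones did not. The tissue difference was 0.80 in the former and 4.54 in the latter, and these differed by -3.74 (adjusted p = 0.0012). 

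The monocyte attractant Ccl7 was near background in both healthy tissues, between 6.18 and 6.87 in small intestine and 4.82 and 7.23 in BM, and between 12.61 and 14.92 in manipulated small intestine. Its tissue differences of 0.52 and 8.10 differed by -7.58 (adjusted p = 0.029). Il6, a fever-inducing cytokine, stood between 9.11 and 12.15 in manipulated small intestine, and its tissue differences of 0.81 and 5.85 differed by -5.04 (adjusted p = 0.0098). Cxcl1 and Il6 kept their calls in all 31 alternatives.

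Tnf stood at 16.13, 17.01, 16.80, 16.78 and 15.96 in manipulated small intestine and at 12.33, 14.34 and 13.90 in manipulated BM. Its tissue differences of 0.26 and 3.01 differed by -2.75 (adjusted p = 0.039), but without library 1 of manipulated BM, the lowest, by -2.16 (adjusted p = 0.14). For Il23a they were 0.01 and 4.37 and differed by -4.36 (adjusted p = 0.041). Without library 4 of manipulated small intestine Il23a differed by -3.71 (adjusted p = 0.080), without library 5 by -5.05 (adjusted p = 0.013). For Ccl7 the value was -6.94 without library 2 of healthy BM (adjusted p = 0.096) and -8.22 without library 1 of manipulated BM. Libraries 3 and 4 of manipulated small intestine had the lowest positive controls, and without both 2 genes passed.

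Il1a was high in the small intestine of both kinds of recipient, while its BM levels spread. In manipulated recipients it stood between 16.99 and 17.37 in the 5 small intestinal libraries and at 12.36, 6.31 and 11.34 in BM, where library 2 stayed at the level of healthy BM. The tissue difference was 6.75 in healthy and 7.18 in manipulated recipients (adjusted p of the difference 0.88). For Il1b it was 4.63 and 5.26, for Vegfa 4.32 and 3.75, and for Cd14 2.78 and 1.86 (adjusted p from 0.75 to 0.84). For Il10 it was 1.60 and 2.88 (adjusted p = 0.40) and for Ccl2 2.27 and 4.36 (adjusted p = 0.39). In manipulated recipients the groups did not overlap for 5 of these 6 genes, all but Vegfa, beside 29.8% of all genes.

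**Figure D4:**
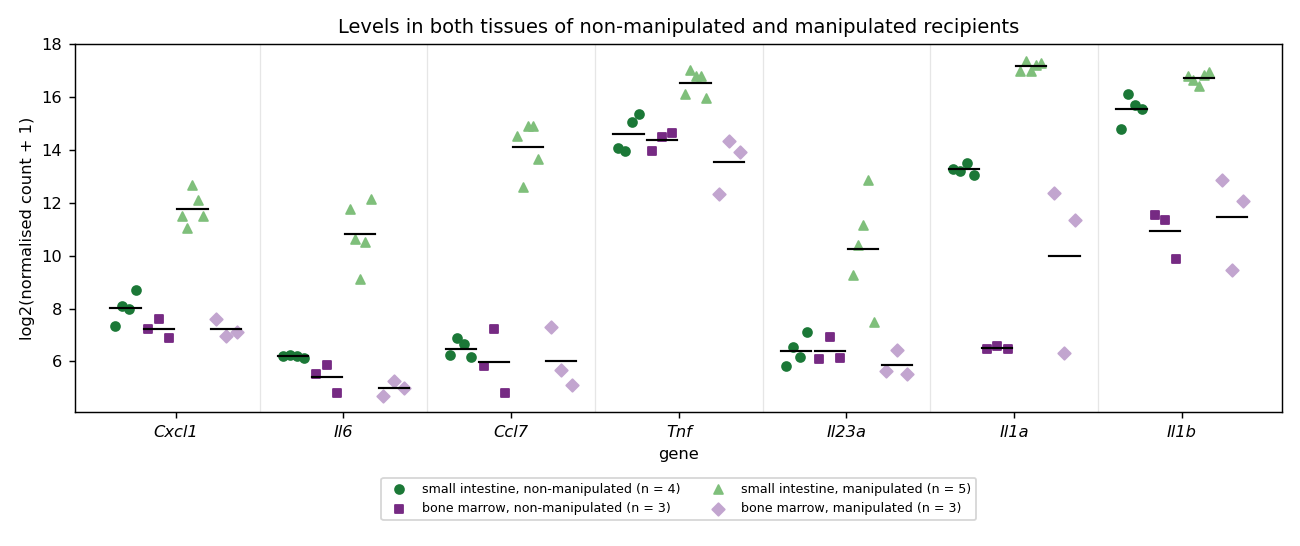
Level of the 5 genes whose tissue difference varied with manipulation, and of Il1a and Il1b, in small intestine and BM of non-manipulated and manipulated recipients, as log2(normalised count + 1). Points are libraries and black lines are means. For Cxcl1, Il6, Ccl7, Tnf and Il23a each library of manipulated small intestine lies above every library of the other groups, whereas Il1a and Il1b are also high in the non-manipulated small intestine.

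The level of these genes elsewhere in the series places the healthy tissues, as a description. Il1a stood at 14.56, 15.30 and 13.90 in healthy liver, which was also digested with collagenase, at 6.51, 12.69 and 6.47 in healthy spleen, which was not, and at 6.67 and 5.96 in monocytes of non-manipulated donors before transfer. For Il1a the BM libraries were near the donor cells before transfer, and the liver libraries lay above those of small intestine. Other genes of BM were not near them, with a mean H2-Ab1 of 17.07 in BM against 12.01 before transfer, and a mean Itgax of 10.9 against 4.9. Il1b stood between 14.81 and 16.32 in liver, 11.24 and 13.62 in spleen and at 11.39 and 9.86 before transfer. Cd14 stood between 15.85 and 16.75 in liver, 12.30 and 14.37 in spleen and at 13.96 and 13.34 before transfer. Vegfa stood between 11.44 and 12.68 in liver and 6.08 and 8.03 in spleen. The part of tissue digestion in these levels was not tested.

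Monocytes of manipulated donors, recovered from healthy small intestine, gave libraries that the first comparison did not use. They share its BM libraries as a reference. Il1a stood at 17.03, 12.34, 14.73 and 14.30 in them, Cd14 at 16.76, 16.46, 15.77 and 16.51, and Il10 at 13.37, 12.69, 13.65 and 11.94. For the 6 higher genes all 4 of these libraries lay above every healthy BM library, which held for 22.8% of all genes. Library 1 of this group was high for Il1a, Il6 (11.04), Ccl7 (12.87), Il23a (10.84), Cxcl1 (10.78) and Arg1 (12.34), unlike the other 3. It was low for H2-Ab1, at 12.85 against 16.20 to 16.99 in the other 3. Its levels of Il1a, Il6 and Ccl7 lay within the range of manipulated small intestine. The reason was not tested.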

How the data were processed

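Donor monocytes of 33 libraries in 11 groups were measured by nCounter after reverse transcription and multiplexed pre-amplification. The authors deposited raw counts in 15 libraries. In the other 18 the deposited values are a signal, counts multiplied by a constant per lane of up to 4, for a reason not given in the sources used here. Dividing it out gave whole numbers for 100% of 1086 values (tolerance 0.002). In the comparison, 2 small intestinal and 2 BM libraries were of this kind, with a constant of 1.333 in the former and 2 in the latter. Of these, only the small intestinal libraries had their control probes multiplied as well. The series matrix deposited by the authors holds a score, the same values times a factor per lane, and was used as an alternative.

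Recovered counts were scaled by the geometric mean of Actb, Gapdh and Rpl19 and expressed as log2 with a pseudocount of 1. A count was above background when it exceeded the negative controls' mean by 2 SD. Groups were compared with limma 3.58.1 (lmFit, eBayes, two-sided tests; R 4.3.3) in 1 fit of all 33 libraries, with Benjamini-Hochberg adjustment over 57 genes and a threshold of 0.05. The fit was tested on simulated data. Probes were matched to genes by transcript (69) or symbol (3). Of 67 panel genes, 8 had no value and 2 had values in some libraries only, and these were left out. edgeR 4.0.16, DESeq2 1.42.0, other scalings and left-out libraries were alternatives. Any measured gene could be named, with full values for genes past the threshold, up to 3 more of each of 14 lists, and a fixed set. Groups, members and lists were chosen with earlier results of these data known. For 2 measured genes no values are reported here. Sequences are from RefSeq (GRCm38.p6).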

Additional observations from a re-analysis of the deposited data

Results flagged for a closer look

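A lone extreme value was looked for in 69 checks, each of 1 gene in 1 group of libraries. The checks covered all 57 genes in healthy small intestine and the genes past either test in manipulated small intestine. BM libraries were not checked. Of the 69 checks 4 were flagged, where chance flags about 1 in 20. Retnla stood at 12.85 in library 4 of healthy small intestine, while the other 3 lay between 5.26 and 5.76. Chil3 stood at 17.15 in library 1 of healthy small intestine, above the 15.74 to 15.97 of the others. Stat6, the transcription factor downstream of interleukin-4, stood at 14.13 in library 2 of healthy small intestine, above 13.64 to 13.66. Cd14 stood at 17.35 in library 2 of manipulated small intestine, above 16.64 to 16.84.

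The tissue difference varied with manipulation for 5 genes. Healthy minus manipulated, it differed by -3.74 for Cxcl1, -5.04 for Il6, -7.58 for Ccl7, -2.75 for Tnf and -4.36 for Il23a, each past the threshold in limma's test of that difference.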

How the results depend on the processing

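Against 7 genes that differed between healthy small intestine and BM, other settings called 5 to 10, apart from 4 with the replicate number as a block and 16 with the methods' t-test at an unadjusted threshold (7 after Benjamini-Hochberg). Same-numbered libraries of the 2 tissues correlated by -0.56, 0.36 and 0.06. So few libraries cannot show whether equal numbers mark the same animal. The main fit did not take the numbers as pairs. With the replicate number as a block in limma, Il10 (adjusted p = 0.16) and Ccl2 (adjusted p = 0.056) did not pass. Leaving out single libraries gave 4 to 9 genes, with 4 without library 1 of small intestine and 5 without library 2 of BM. Il10 lost its call in 9 of 23 alternatives and Ccl2 in 12, with no change of direction. Total counts moved the median of all genes by 0.25, TMM factors by -0.15 and the series matrix by -0.35.

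Against 5 genes whose tissue difference varied with manipulation, TMM factors gave 3, total counts 2 and scaling without Rpl19 3. Leaving out single libraries gave 2 to 6, and leaving out libraries 3 and 4 of manipulated small intestine, chosen after seeing the data, gave 2, with Il6 at -5.72 and Il23a at -3.19. With the replicate block 6 passed. Tnf lost its call in 12 of 31 alternatives, Ccl7 in 7 and Il23a in 17. The cause of these changes was not tested. Where a gene is near background, as Il1a, Il6, Retnla and Vegfa are in BM, fold changes depend on that floor.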
